A study of Mus musculus with 16 samples.

Results

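Omitting methionine from the perfusate was examined in the livers of wild-type mice alone, in 8 of the 16 arrays of the series. Livers of Gcn2+/+ mice aged 3 to 6 months were perfused in a single pass with medium that held methionine (+Met) or lacked it (-Met). The members were chosen from the sample labels: 4 -Met arrays were set against 4 +Met arrays, with 2 arrays per medium from unfractionated RNA of the liver supernatant and 2 from polysomal RNA, the gradient fractions in which mRNAs loaded with several ribosomes sediment. Each array received RNA pooled from 2 perfused livers, so a replicate is a pool and not a single animal. The other 8 arrays came from littermates with a global Gcn2 deletion (Gcn2-/-), perfused and fractionated in the same way. Their values are set beside those of wild-type livers, and they entered the choice of probe sets and of genes to test. The isolated liver keeps all its own cell types but no longer receives blood, and the labels give neither the length of perfusion nor the time of day.

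Gcn2 is a protein kinase that binds uncharged tRNA when an amino acid runs short and phosphorylates the initiation factor eIF2. General translation then falls while the mRNA of the transcription factor ATF4 is translated better, and ATF4 switches on genes for amino acid uptake and synthesis. The liver also makes most plasma proteins, raises a subset of them, the acute phase proteins, in inflammation, and runs a circadian clock in which genes such as Dbp and Per1 peak at the opposite time of day from Arntl (Bmal1) and Npas2.

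All 8 wild-type arrays had been scaled to one trimmed mean signal of 150.0, and 26.9% to 28.5% of probe sets reached a signal of 80. Replicate arrays correlated at 0.970 to 0.976 across genes. Of 18193 genes on the array, the 10916 brightest were tested. The deleted gene, Eif2ak4 (Gcn2), read 62.9 to 104 in the wild-type arrays and 21.2 to 52.9 in the knockout arrays, without overlap. The hepatocyte markers summed to 121294 to 136847 in the -Met arrays and 97250 to 128570 in the +Met arrays, and 0 of 13 were under a signal of 80 throughout. Of 16 Kupffer cell (liver macrophage) markers tested, 0 were called in either direction (limma, adjusted p under 0.05). As 1.98% of all tested genes were called, that count is near the share of all genes and is not a result about these cells. The 18 markers on the array summed to 2157 to 5350 without and 2113 to 5090 with methionine. The defining neutrophil genes S100a8, S100a9, Ngp, Camp, Ltf, Elane and Mpo were all under 80 in the 8 arrays, as were the T cell genes Cd3e, Cd3g and Cd3d. The stellate cell and fibroblast markers summed to 1845 to 2583 without and 1252 to 2187 with methionine. Sinusoidal endothelial markers gave 1781 to 2351 and 1315 to 1962, cholangiocyte markers 1487 to 1944 and 1211 to 1528, and red cell markers 1130 to 2092 and 1130 to 2349. The media overlapped in each, and these sums were not tested. Dcn, 1 of 11 tested stellate cell and fibroblast markers, was called higher and lost without any 1 of 7 arrays. In such tissue RNA, a change in the number of cells of a type and a change in RNA per cell cannot be told apart.

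Omitting methionine shifted 216 genes in wild-type livers, 168 higher and 48 lower (1.98% of the genes tested, limma, adjusted p under 0.05, called below), with polysome and unfractionated RNA fitted together. The largest rises were led by acute phase proteins, and the falls by the clock genes Dbp and Noct. The median log2 difference (-Met minus +Met, signal + 16) was 0.77 among the genes called higher and -0.76 among those called lower, against 0.003 over all genes. Changes past 2-fold were made by 48 of the rises and 9 of the falls. The -Met and +Met arrays of all 216 genes were apart within each fraction, which 14.9% of all tested genes also were, and in 180 of the 216 all 4 -Met arrays lay on one side of all 4 +Met arrays, as in 6.75% of all tested genes.

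The change was of one sign in both fractions for all 216 genes, a property that the joint test favours. Its size was larger in polysome RNA for 164 of them, with a median among the rises of 0.89 in polysome and 0.64 in unfractionated RNA, and of -0.84 and -0.68 among the falls. A test of the difference itself called 0 genes in either direction, with 699 at an unadjusted p under 0.05. The smallest p-values in that test belonged to Birc7, Clcn5, Ier2, Gadd45b and Agt, whose difference was higher in polysome RNA, and to Ier3ip1, Apoc2, Cep83, 1700001L05Rik and Rpl22, where it was lower, each at an adjusted p of 0.71. Apoc2, which encodes the cofactor of lipoprotein lipase, read 5303 and 4677 without and 3557 and 3560 with methionine in unfractionated RNA, but 1557 and 2191 against 3181 and 4296 in polysome RNA. Rpl22, a ribosomal protein mRNA, read 8552 and 8535 against 7623 and 8848 in unfractionated RNA, and 1536 and 1704 against 2935 and 3764 in polysome RNA. Without the first +Met polysome array the test of fractions called 15 genes higher and 5 lower, Apoc2 (-1.69) and Ier3ip1 (-1.97) among them, and without the second it called 1 higher, Clcn5 (4.57).

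**Figure D1:**
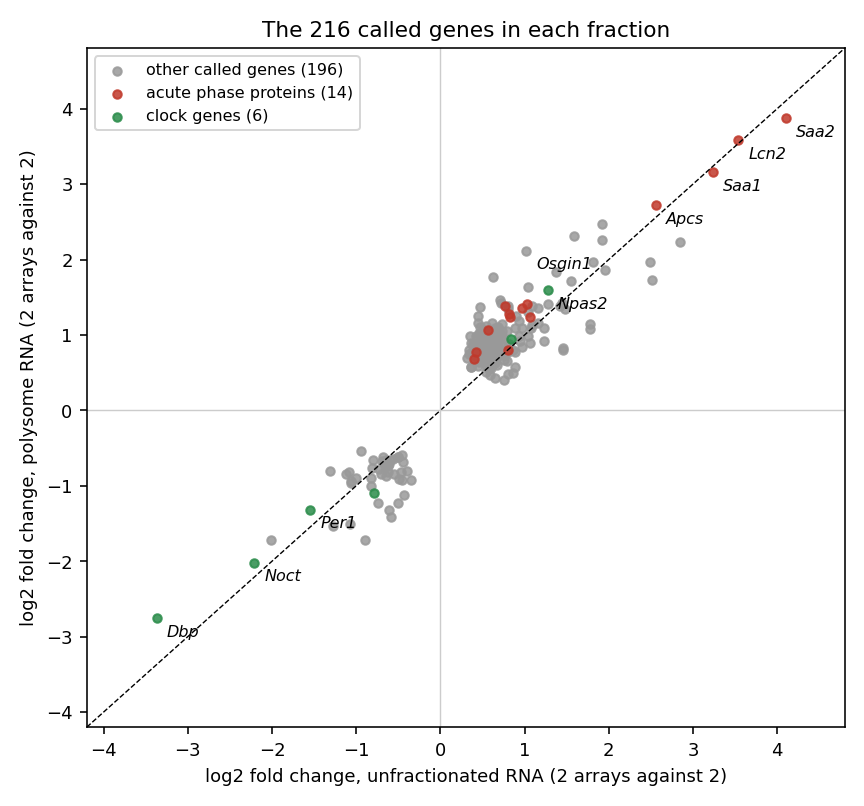
Log2 difference between -Met and +Met wild-type arrays in unfractionated RNA (horizontal axis) and polysome RNA (vertical axis), 2 arrays against 2 on each axis, for the 216 called genes. Points are genes, the dashed line marks equal differences, 164 genes lie farther from 0 on the polysome axis, and all 216 fall in the lower left or upper right quadrant.

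How far the calls rested on single arrays was measured by leaving out each array. All 216 genes kept the sign of their difference without any 1 array or pool. Calls were fewer: of the 216, 54 remained without polysome -Met replicate 2, 67 without polysome +Met replicate 1, 74 without unfractionated +Met replicate 1, 91 without polysome -Met replicate 1, 98 without unfractionated -Met replicate 1, 122 without polysome +Met replicate 2, 136 without unfractionated -Met replicate 2 and 159 without unfractionated +Met replicate 2. Without both arrays of a pool, 32 remained when -Met replicate 2 was left out, 36 for +Met replicate 1, 74 for -Met replicate 1 and 137 for +Met replicate 2. With both fractions of a pool averaged (pool means), 2 pools against 2, 36 of the 216 were called. Standard errors (SE) and p-values of single genes count the 2 fractions of a pool as separate arrays, unless pool means or a pool block is named. Setting the array medians equal moved the median of all genes to -0.20 and turned the split to 56 higher and 166 lower, with 0 of the 216 changing sign, so the count of rises against falls depends on that scale.

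A group of 16 genes was called without any 1 array and without any 1 pool. The 13 higher were Saa2, Saa1, Apcs, Ighm, Adh6-ps1, Asic5, Hsd3b2, Prg4, Rdh11, Itih4, Serpina6, Igfbp1 and Rnf125, and the 3 lower were Noct, Gm16551 and Rpgrip1. They were singled out after their values were seen, and all 4 -Met arrays of each were apart from all 4 +Met arrays. Ighm and Rpgrip1 were not called with the mean over all probe sets. Rnf125, a ubiquitin ligase, read 5113 and 4777 without against 2368 and 2345 with methionine in unfractionated RNA and 6794 and 6297 against 3519 and 3496 in polysome RNA (0.98 ± 0.10, adjusted p = 0.0014). Rdh11, a retinal reductase, read 637 and 709 against 294 and 322 in unfractionated RNA and 784 and 890 against 342 and 279 in polysome RNA (1.24 ± 0.13, adjusted p = 0.0014). The replicates of both genes lay close together. Serpina6, the corticosteroid carrier of plasma, read 2731 and 2452 against 1806 and 1375 in unfractionated RNA and 3090 and 2601 against 1016 and 1014 in polysome RNA (1.09 ± 0.16, adjusted p = 0.0055). Prg4, a lubricating proteoglycan, read 380 and 654 against 197 and 196 in unfractionated RNA and 242 and 260 against 71.9 and 99.0 in polysome RNA (1.34 ± 0.17, adjusted p = 0.0032).

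**Figure D2:**
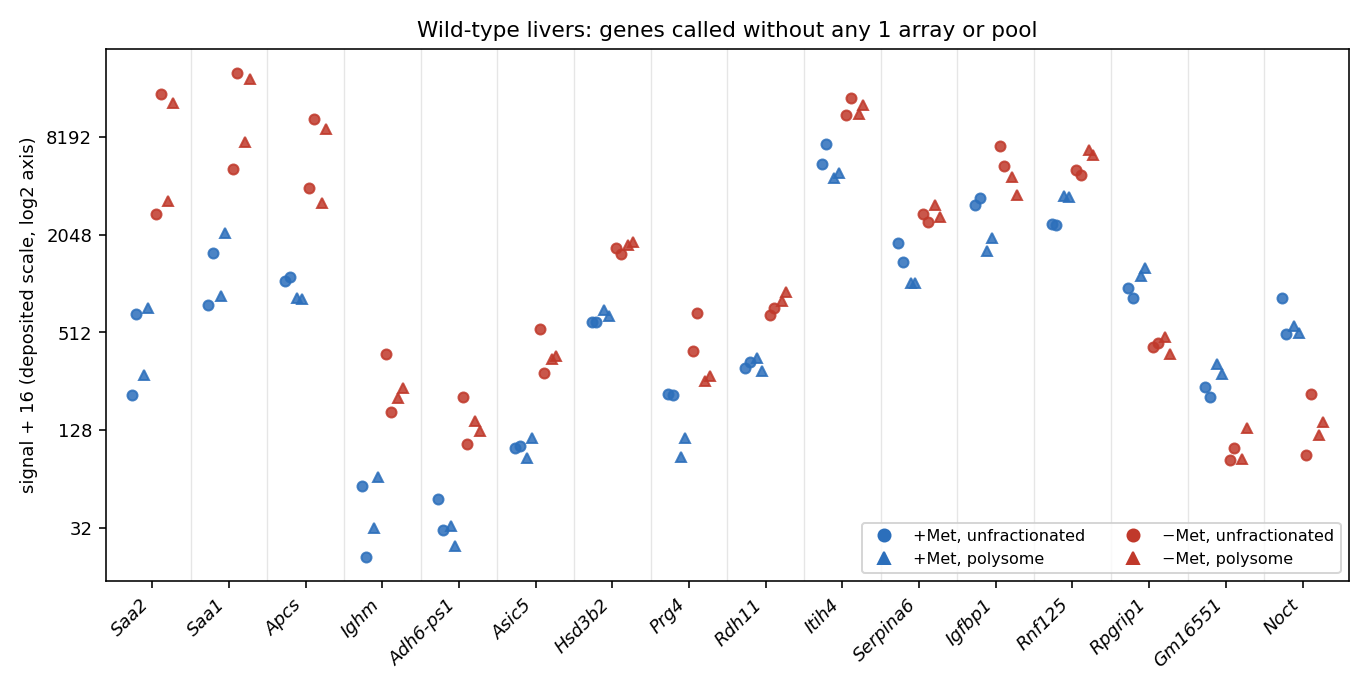
Deposited signal plus 16 in the 8 wild-type arrays (log2 axis) for the 16 genes called without any 1 array or pool. Blue points are +Met and red points -Met arrays, circles are unfractionated and triangles polysome RNA, and the media do not overlap for any of the 16 genes.

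Of 29 acute phase genes tested, 14 were called higher, among them 4 of the largest rises of all genes. Serum amyloid A, carried by Saa1 and Saa2, is a lipoprotein-bound protein that the liver secretes in inflammation. Saa2 read 2716 and 15162 without methionine against 195 and 646 with it in unfractionated RNA, and 3290 and 13185 against 264 and 710 in polysome RNA. The second -Met pool was the highest in both fractions, yet the first also lay above every +Met array. The log2 difference of Saa2 was 3.99 ± 0.55 (SE, 4 arrays against 4, limma adjusted p = 0.0039). Saa1 read 5169 and 20411 against 738 and 1555 in unfractionated RNA and 7641 and 18660 against 840 and 2083 in polysome RNA, again highest in the second -Met pool, a difference of 3.20 ± 0.42 (adjusted p = 0.0032). From pool means, 2 pools against 2, the limma adjusted p was 0.048 for Saa2 and 0.047 for Saa1. The probe sets of both genes carry the maker's mark for probes that can read several similar transcripts, so their signals may share RNA.

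The promoter windows of Saa1 (chr7:46742931-46743230, minus strand) and Saa2 (chr7:46751583-46751882, plus strand), each from 250 bases before to 50 after the start of transcription in RefSeq (GRCm38.p6), are shown because these genes made the largest rises. Capitals mark the C/EBP motif TTGCNNAA, on either strand.
Saa1: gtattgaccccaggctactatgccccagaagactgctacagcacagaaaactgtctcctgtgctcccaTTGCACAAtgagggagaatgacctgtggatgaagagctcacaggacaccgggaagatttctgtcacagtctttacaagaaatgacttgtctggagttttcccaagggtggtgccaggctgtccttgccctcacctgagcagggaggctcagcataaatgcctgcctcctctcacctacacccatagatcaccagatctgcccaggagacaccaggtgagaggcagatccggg
Saa2: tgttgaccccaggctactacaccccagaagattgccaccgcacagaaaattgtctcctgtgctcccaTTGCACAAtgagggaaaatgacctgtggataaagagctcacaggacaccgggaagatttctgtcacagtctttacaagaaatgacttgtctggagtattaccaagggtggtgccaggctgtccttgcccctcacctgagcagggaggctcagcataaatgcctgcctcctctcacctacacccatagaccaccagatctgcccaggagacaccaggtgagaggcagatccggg
The windows were identical at 95.3% of aligned positions, and both hold 1 such motif, starting 182 bases before the start in Saa1 and 183 in Saa2. Among the 14 called acute phase genes, 12 had a window, and 7 of these held TTGCNNAA (Cp, Fga, Fgb, Hpx, Lcn2, Saa1 and Saa2), as did 10.5% of the tested genes with a window and 20.9% of those called higher. In the same 12 windows the STAT motif TTCNNNGAA was found in 4 (8.36% of tested genes) and the NF-kB decamer in 0 (0.191% of tested genes). A match of letters is a description and not a site.

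Apcs, serum amyloid P component, a pentraxin that coats amyloid fibrils, read 3958 and 10580 without against 1052 and 1113 with methionine in unfractionated RNA and 3194 and 9235 against 822 and 801 in polysome RNA. The +Met arrays were close together, and the second -Met pool again lay above the first, with a difference of 2.64 ± 0.31 (adjusted p = 0.0017). From pool means the limma adjusted p of Apcs was 0.032. Itih4, a protease inhibitor heavy chain of plasma, read 11200 and 14186 against 5542 and 7440 in unfractionated and 11424 and 12830 against 4542 and 4889 in polysome RNA, a difference of 1.17 ± 0.14 (adjusted p = 0.0017). Both pools of each medium were close for this gene. Lcn2 (lipocalin 2, which binds bacterial iron carriers) read 243 and 4763 against 74.5 and 85.2 in unfractionated and 342 and 4004 against 52.9 and 130 in polysome RNA. The second -Met pool stood far above the first, and the rise of 3.56 ± 0.79 (adjusted p = 0.037) lost its call without any 1 of 6 arrays or of both +Met pools (2.72 to 3.87). Lcn2 was also not called from pool means (limma adjusted p = 0.18). Orm2 (an orosomucoid), with a similar pattern of 306 and 5722 against 97.3 and 117 in unfractionated RNA and 129 and 3425 against 109 and 96.5 in polysome RNA, was not called (3.02 ± 0.88, adjusted p = 0.11), and was named after its values were seen.

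Of 29 acute phase genes tested, 14 rose and 0 fell, with a median difference of 0.81 against 0.003 over all genes, where 1.54% of genes were called higher. With array medians made equal 11 were called higher and 0 lower, and 12 were called once the pool entered as a random block. The other called members were Fga (fibrinogen alpha chain, 1.03 ± 0.14, adjusted p = 0.0034), Hp (haptoglobin, which binds free haemoglobin, 1.04 ± 0.16, adjusted p = 0.0055), Lbp (which hands bacterial lipopolysaccharide to CD14, 1.22), Serpina3n (a serine protease inhibitor, 1.15), Crp (0.81), Itih3 (0.80), Fgb (0.60), Cp (ceruloplasmin, the copper-bearing ferroxidase, 1.08) and Hpx (the heme carrier hemopexin, 0.54), of which Lbp, Serpina3n, Crp, Itih3 and Fgb were named after their values were seen. Itih3 was lost without 4 arrays (0.57 to 0.73, pools included) and Fgb without 6 (0.50 to 0.61). Fga, Hp, Lbp, Serpina3n and Crp were called without any 1 array, but each was lost without 1 or 2 of the 4 pools. Cp was lost without 6 of the arrays (0.57 to 1.18, pools included) and Hpx without 7 (0.40 to 0.60). Genes of IL-6, STAT3 and NF-kB signalling, which drive the acute phase response, were called in 3 of 37 cases, all higher, with a list median of 0.20. These were Cish (a STAT5-induced inhibitor of cytokine signalling, 0.99), Nfkbiz (a nuclear IkB protein, 0.72) and Il1rap (a subunit of the interleukin 1 receptor, 0.63), and each was lost without 4 to 7 of the arrays (0.57 to 1.05 over the 3 genes). Lcn2, a neutrophil granule protein too, was the 1 called gene among 7 tested neutrophil and monocyte markers, and the other 13 markers on the array summed to 419 to 777 without and 354 to 627 with methionine. Their part in the rises was not tested.

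Other secreted liver proteins rose by smaller amounts. Of 43 coagulation, complement and other plasma protein genes, 15 rose and 0 fell, with a median difference of 0.47, where 1.54% of all genes were called higher. With array medians made equal 2 were called higher and 0 lower. Kng1 (kininogen, the precursor of bradykinin) read 8267 and 10284 without against 5627 and 5891 with methionine in unfractionated RNA and 7203 and 7408 against 3506 and 3263 in polysome RNA, a difference of 0.89 ± 0.12 (adjusted p = 0.0040) with all -Met arrays above all +Met arrays. Serpind1 (heparin cofactor II, 0.82), Afm (the vitamin E carrier afamin, 0.74) and Hc (complement component 5, 0.66) also rose. Kng1 and Serpind1 were called without any 1 array, but Kng1 not without the second -Met pool (0.80) and Serpind1 not without 2 of the pools (0.74 and 0.82). Afm was lost without 5 arrays (0.59 to 0.90) and Hc without 4 (0.49 to 0.71). Of 13 apolipoprotein genes 3 rose, against the same 1.54% of all genes: Apoa4 (1.16 ± 0.17, adjusted p = 0.0055), Apof (0.85) and Apon (0.84), with a list median of 0.38. Apoa4 and Apon were called without any 1 array, but not without 1 pool (1.06) and 2 pools (0.78 and 0.84), and Apof was lost without 4 (0.76 to 0.87). Among 13 hepatocyte markers, the plasma proteins Ahsg (fetuin-A, 0.50) and F2 (prothrombin, 0.47) were called higher (1.54% of all genes), with a list median of 0.26 and neither called under equal medians. Ahsg was lost without 6 arrays (0.45 to 0.55) and F2 without each of the 8 (0.41 to 0.52).

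Genes of the endoplasmic reticulum, where secreted proteins fold and receive their sugars, rose in part. Of 32 chaperone and unfolded protein response genes 4 rose and 0 fell (median 0.19), against 1.54% of all genes called higher and 0.44% called lower: Pdia6 (1.07 ± 0.17, adjusted p = 0.0081), Pdia3 (0.85), P4hb (0.70 ± 0.11, adjusted p = 0.0055), all disulfide isomerases, and the lectin chaperone Calr (0.83). P4hb read 4575 and 4619 without against 2972 and 3083 with methionine in unfractionated RNA and 4295 and 4113 against 2444 and 2397 in polysome RNA, with every -Met array above every +Met array. Hspa5 (BiP), the best-known marker of the unfolded protein response, differed by 0.13 and was not called. Of 28 genes of the translocon and glycosylation machinery 6 rose and 1 fell (median 0.20), to be set against the same shares of all genes. Rpn1 (0.72), Ddost (0.70), Rpn2 (0.68) and Stt3b (0.63) are subunits of the oligosaccharyltransferase, Spcs3 (0.64) belongs to the signal peptidase and Ssr1 (0.58) to the translocon-associated complex, while Srp19 (-0.78), a signal recognition particle protein, fell. Hspa5, Stt3b, Ssr1 and Srp19 were named after their values were seen. With array medians made equal 1 of the chaperones was called higher and 1 lower, and 0 of the machinery genes higher and 1 lower. Pdia6 and P4hb were called without any 1 array but not without 3 and 2 of the pools, and the other 9 genes called in these lists were each lost without 4 to 8 of the arrays, taken singly (0.45 to 0.89 for the rises and -0.89 to -0.61 for Srp19, pools included).

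**Figure D3:**
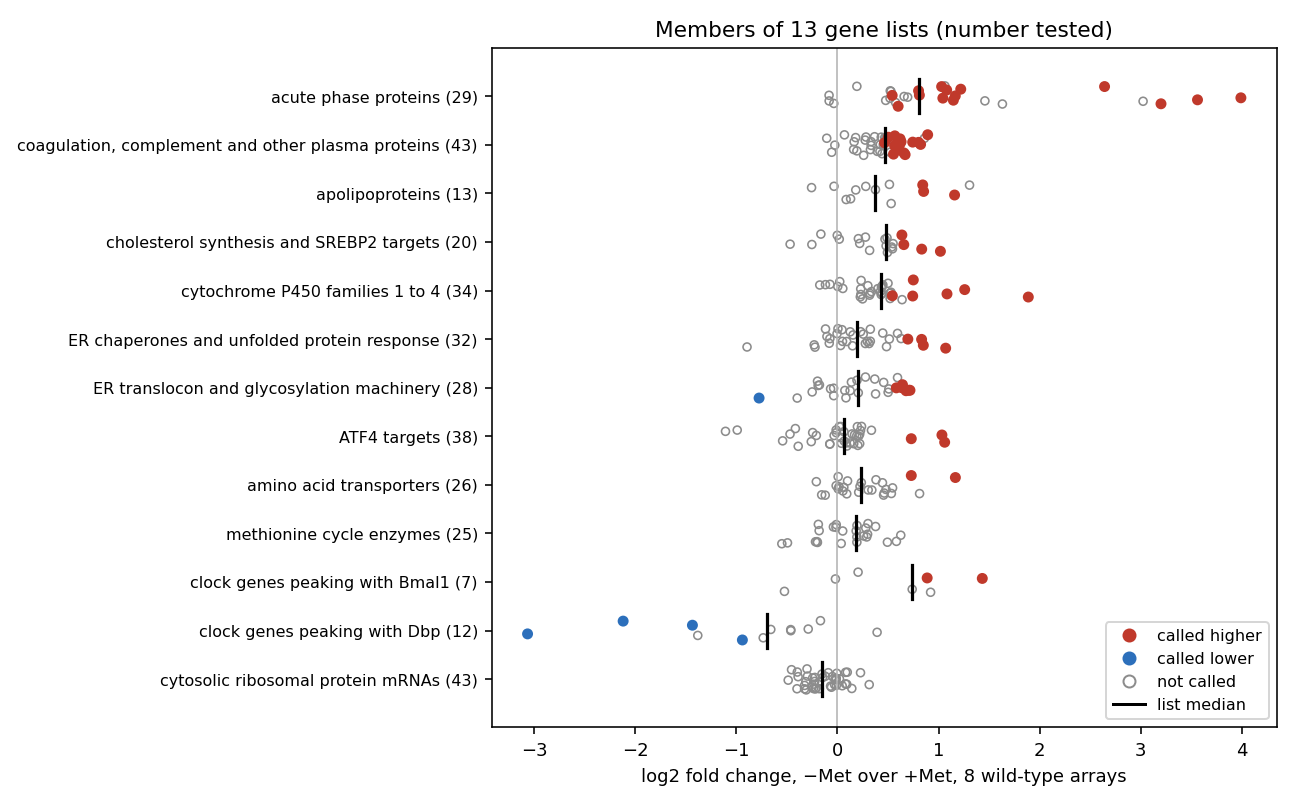
Log2 difference (-Met minus +Met, 8 wild-type arrays) of the tested members of 13 gene lists, with the number tested in brackets. Filled red points are genes called higher, filled blue points genes called lower, open points were not called, and the bar is the list median, which runs from -0.70 for the clock genes that peak with Dbp to 0.81 for the acute phase proteins.

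Of 38 ATF4 target genes 3 rose and 0 fell, and the list median was 0.07 against 0.003 over all genes, of which 1.54% were called higher and 0.44% lower. The list median was of opposite sign in the fractions, -0.11 in unfractionated and 0.24 in polysome RNA (-0.017 and 0.024 over all genes). With array medians made equal 2 were called higher and 2 lower. Igfbp1, an insulin-like growth factor binding protein that the liver secretes in fasting, read 7254 and 5386 without against 3115 and 3445 with methionine in unfractionated RNA and 4628 and 3577 against 1616 and 1948 in polysome RNA. The media were apart in both fractions, a difference of 1.06 ± 0.14 (adjusted p = 0.0032). Chac1, an enzyme that degrades glutathione, read 135 and 229 against 78.1 and 86.0 in unfractionated RNA and 248 and 263 against 105 and 118 in polysome RNA, a difference of 1.03 ± 0.17 (adjusted p = 0.0082). It was called without any 1 array, but not without 2 of the pools (0.84 and 0.97). Slc3a2, the heavy chain of several amino acid exchangers, read 356 and 334 against 244 and 250 in unfractionated and 345 and 275 against 150 and 141 in polysome RNA (0.73 ± 0.15, adjusted p = 0.029), and lost its call without any 1 of 6 arrays or any pool (0.61 to 0.83). Among the called ATF4 targets, the window of Chac1 (chr2:119350992-119351291, plus strand) is shown because it was the one window of the 3 with the amino acid response motif TGATGNAA, marked in capitals on the opposite strand and starting 193 bases before the start.
Chac1: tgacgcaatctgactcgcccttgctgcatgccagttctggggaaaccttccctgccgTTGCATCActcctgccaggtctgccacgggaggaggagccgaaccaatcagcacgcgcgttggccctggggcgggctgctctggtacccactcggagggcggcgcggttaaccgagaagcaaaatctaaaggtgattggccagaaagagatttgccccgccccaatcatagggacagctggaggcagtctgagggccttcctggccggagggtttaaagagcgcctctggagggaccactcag
The motif lies in 2.81% of the windows of tested genes.

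Most other genes of the response were not called. Atf4 read 2039 and 1848 without against 1795 and 1506 with methionine in unfractionated RNA and 2099 and 2080 against 1415 and 1380 in polysome RNA. All -Met arrays lay above all +Met arrays, but the difference of 0.41 ± 0.12 did not pass (adjusted p = 0.12). Asns, asparagine synthetase, overlapped between media in both fractions (0.34 ± 0.17, adjusted p = 0.34). It read 1140 and 877 against 942 and 722 in unfractionated RNA and 536 and 702 against 563 and 378 in polysome RNA. Fgf21, a fasting hormone of the liver, read 32.8 and 47.2 against 209 and 118 in unfractionated RNA and 32.9 and 43.6 against 47.4 and 57.7 in polysome RNA, so that it was lower in every -Met array without a call (-0.99 ± 0.28, adjusted p = 0.097, but 0.029 with array medians made equal). Trib3 (-0.54, adjusted p = 0.31), Nupr1 (-1.11, adjusted p = 0.22), Atf3 (0.17, adjusted p = 0.73) and Ddit3 (CHOP, -0.01, adjusted p = 0.98) were not called, and Sesn2 and Psat1 were too dim to test. Without the second +Met pool Trib3 was called lower (-1.01, adjusted p = 0.033).

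**Figure D4:**
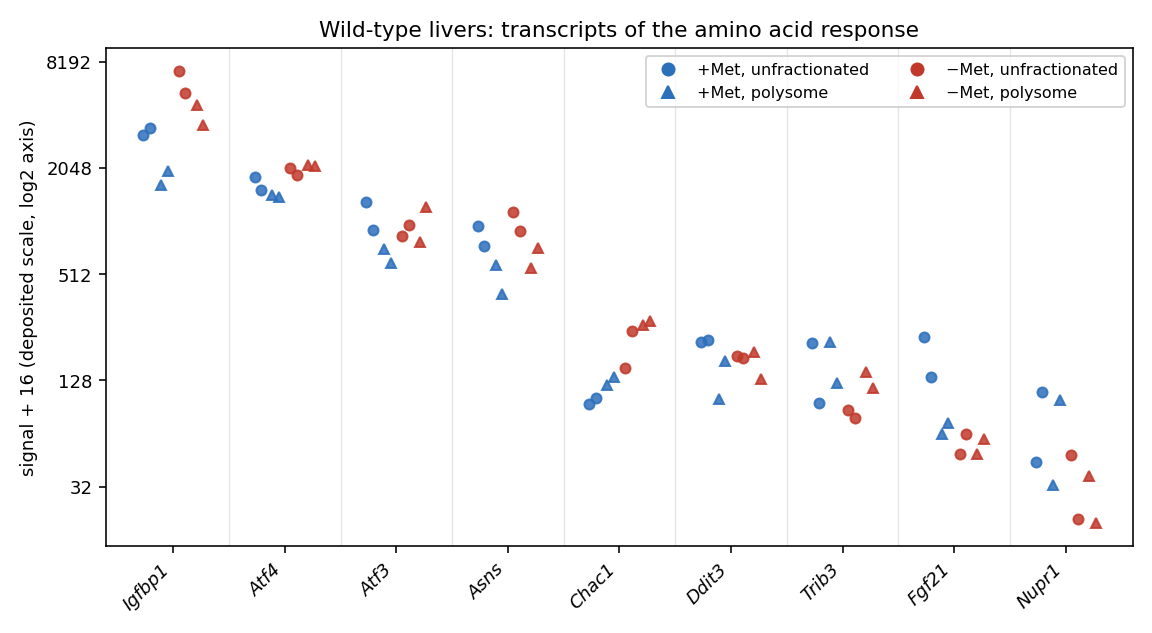
Deposited signal plus 16 in the 8 wild-type arrays (log2 axis) for Atf4 and 8 tested genes of the amino acid response, with media by colour and fractions by symbol. Igfbp1 and Chac1 are apart between media, Atf4 is apart by a smaller step, and Asns, Atf3, Ddit3, Trib3 and Nupr1 overlap.

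Genes that handle methionine itself were not called. Of 25 enzymes of the methionine cycle 0 were called in either direction (limma), with a median of 0.18. Over all genes 1.98% were called, 1.54% higher and 0.44% lower, to be set beside every list of this paragraph. A count of 0 in a list of this size is near that share and is not a result about its members. Mat1a, the liver enzyme that makes S-adenosylmethionine, read 7284 and 8318 without against 7332 and 6319 with methionine in unfractionated RNA and 11933 and 8164 against 7837 and 7024 in polysome RNA, overlapping in the first (0.30 ± 0.13, adjusted p = 0.29). Bhmt (0.19), Gnmt (0.19), Cbs (0.18) and Cth (0.22) had adjusted p-values of 0.30 to 0.44, and their signs turned with array medians made equal. Mat2a was not analysed here. Among 22 genes of cysteine, taurine and glutathione synthesis, Chac1 rose and Csad fell. Csad, which makes hypotaurine on the route from cysteine to taurine, read 2459 and 1905 against 3423 and 3626 in unfractionated RNA and 1831 and 1379 against 2266 and 2865 in polysome RNA (-0.69 ± 0.14, adjusted p = 0.023), lower within each fraction, and lost its call without any 1 of 5 arrays or 3 pools (-0.79 to -0.50). Of 26 amino acid transporters 2 rose, Slc3a2 and Slc3a1 (1.17 ± 0.23, adjusted p = 0.023), the partner of the cystine carrier, lost without any 1 of 4 arrays (0.81 to 1.11, pools included). Of 37 aminoacyl-tRNA synthetases and 43 cytosolic ribosomal protein mRNAs 0 were called, with medians of 0.06 and -0.15. These medians join fractions of opposite sign. The synthetases had a median of -0.11 in unfractionated and 0.15 in polysome RNA, and the ribosomal protein mRNAs 0.05 and -0.34. Over all genes the medians were -0.017 and 0.024.

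Among clock genes, the calls were lower in one phase list and higher in the other. Of 12 genes that peak with Dbp, 4 fell and 0 rose (median -0.70, where 0.44% of all genes were called lower). Of 7 that peak with Bmal1, 2 rose and 0 fell (median 0.74, where 1.54% of all genes were called higher). Dbp, a transcription factor with strong daily swings, read 64.1 and 202 without against 3104 and 584 with methionine in unfractionated RNA and 104 and 268 against 2634 and 571 in polysome RNA. All -Met arrays were lower, but the +Met pools were themselves far apart, and the fall of -3.06 ± 0.54 (adjusted p = 0.016) was lost without unfractionated -Met replicate 1, polysome +Met replicate 1 or polysome -Met replicate 1, and without the first pool of either medium (-2.88 to -1.93). Noct (nocturnin), a phosphatase with a nightly peak, read 74.0 and 198 against 814 and 482 in unfractionated RNA and 103 and 127 against 542 and 491 in polysome RNA, without overlap and with a difference of -2.12 ± 0.24 (adjusted p = 0.0017). Per1, a repressor of the clock, read 8.21 and 24.2 against 96.3 and 58.1 in unfractionated and 17.8 and 9.05 against 45.6 and 69.8 in polysome RNA, dim throughout (-1.43 ± 0.27, adjusted p = 0.020), and was lost without any 1 of 4 arrays or any pool (-1.51 to -1.27). Nr1d2 (REV-ERB beta, a repressor of Bmal1) differed by -0.94 ± 0.20 (adjusted p = 0.034) and was lost without any 1 of 6 arrays or 2 pools (-1.07 to -0.55).

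In the opposite phase, Npas2, which pairs with Bmal1 in place of Clock, read 75.4 and 56.6 without against 9.90 and 27.8 with methionine in unfractionated RNA and 62.2 and 67.4 against 6.72 and 15.7 in polysome RNA. Its media were apart, with a difference of 1.43 ± 0.26 (adjusted p = 0.017), lost without any 1 of 4 arrays or 3 pools (1.12 to 1.49). Nfil3, a repressor that competes with Dbp, rose by 0.89 ± 0.18 (adjusted p = 0.027), lost without any 1 of 5 arrays or 2 pools (0.57 to 0.90). Arntl itself read 409 and 265 against 107 and 237 in unfractionated RNA and 501 and 190 against 126 and 208 in polysome RNA, so that the media overlapped (0.92 ± 0.29, adjusted p = 0.14), though it was called without the second +Met pool (1.35, adjusted p = 0.048). The windows of Per1 (the first of its 2, chr11:69098699-69098998, plus strand) and Noct (chr3:51224197-51224496, plus strand) are shown because they held an E-box or a D-box, motifs bound by clock factors. Capitals mark the E-box CACGTG and the D-box TTATGNAA, on either strand, and a D-box TTATGCAA is also a C/EBP match on the other strand.
Per1: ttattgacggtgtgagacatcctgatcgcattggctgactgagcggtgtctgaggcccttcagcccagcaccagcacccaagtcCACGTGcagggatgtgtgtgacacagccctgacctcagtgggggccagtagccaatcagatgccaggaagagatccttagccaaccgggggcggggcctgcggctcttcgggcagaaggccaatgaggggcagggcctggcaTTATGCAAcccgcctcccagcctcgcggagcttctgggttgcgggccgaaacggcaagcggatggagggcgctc
Noct: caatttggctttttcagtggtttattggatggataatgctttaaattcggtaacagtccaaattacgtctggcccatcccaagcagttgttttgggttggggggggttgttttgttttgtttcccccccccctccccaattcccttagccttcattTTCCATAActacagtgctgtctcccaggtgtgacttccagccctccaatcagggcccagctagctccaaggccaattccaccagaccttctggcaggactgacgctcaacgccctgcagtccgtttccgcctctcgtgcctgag
Per1 holds an E-box starting 166 bases and a D-box starting 24 bases before the start, and Noct a D-box starting 94 bases before it. Among the 4 genes that fell, 1 held an E-box (12% of tested genes) and 2 a D-box (2.68%). The RORE core AGGTCA, which REV-ERB and ROR factors bind, lay in windows of Nr1d2 and Per1 among these 4 and of Nfil3 among the 2 clock genes that rose (15.8% of tested genes), and is not marked in capitals.

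Among metabolic genes, Hsd3b2, a hydroxysteroid dehydrogenase, had the smallest p-value of all genes. It read 1674 and 1548 without against 581 and 578 with methionine in unfractionated RNA and 1767 and 1820 against 688 and 627 in polysome RNA, and its replicates were within a narrow range of each other (1.44 ± 0.11, adjusted p = 0.00012). Of 34 cytochrome P450 genes 6 rose and 0 fell, with a median of 0.43 and 3 called higher under equal medians, where 1.54% of all genes were called higher. Cyp4a14, a fatty acid hydroxylase, read 1595 and 650 against 425 and 182 in unfractionated and 961 and 661 against 335 and 107 in polysome RNA (1.89 ± 0.35, adjusted p = 0.019), and was lost without any 1 of 4 arrays or 2 pools (1.22 to 1.98). Cyp2b10 (1.26 ± 0.18, adjusted p = 0.0048) and Cyp3a13 (1.08 ± 0.14, adjusted p = 0.0026), both drug-metabolising enzymes, were called without any 1 array, but neither without the second -Met pool (1.27 and 0.95), and Cyp2c29 (0.75) was lost without 3 (0.54 to 0.73). Of 20 genes of cholesterol synthesis 4 rose and 0 fell, with a median of 0.48 and the same share of all genes called higher: Dhcr7 (1.02 ± 0.14, adjusted p = 0.0046), Sqle (0.83), Ebp (0.66) and Cyp51 (0.64). With array medians made equal 1 of the 4 was called, and without 4 to 6 of the arrays, taken singly, Sqle, Ebp and Cyp51 were not (0.49 to 0.90 over the 3 genes). Osgin1, a target of the oxidative stress factor NRF2, read 2125 and 1239 against 901 and 694 in unfractionated and 1571 and 1174 against 337 and 268 in polysome RNA (1.57 ± 0.24, adjusted p = 0.0055). It was the 1 called gene among 28 of that pathway, where 1.54% of all genes were called higher. That count is near the share of all genes and is not a result about the pathway. Osgin1 and Dhcr7 were called without any 1 array but not without 1 of the pools (1.27 and 0.87). Pfkfb3, which makes the activator of glycolysis fructose 2,6-bisphosphate, read 5.30 and 25.7 against 148 and 72.8 in unfractionated and 3.99 and 20.4 against 70.7 and 75.7 in polysome RNA, lower in every -Met array (-1.87 ± 0.30, adjusted p = 0.0081). The call held without any 1 array but not without the first +Met pool (-1.67).

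Smaller groups of calls lay in other lists, to be set against 1.54% of all genes called higher and 0.44% called lower. Among 33 immediate early genes, Fosl2 (an AP-1 subunit, 1.17), Fos (0.57) and the mRNA decay factor Zfp36l1 (0.62) rose and 0 fell, with a median of 0.22. Among 28 autophagy and lysosome genes, the membrane protein Lamp2 (0.63) and the proteases Ctsb (0.58) and Ctsl (0.58) rose and 0 fell, though the list median was -0.08. Of 26 genes of bile acid synthesis and transport 3 rose and Slc10a2 fell: Cyp8b1, which makes the precursor of cholic acid, by 0.85, the bile salt export pump Abcb11 by 0.65 and the uptake carrier Slc10a1 by 0.47. With array medians made equal, the immediate early list had 1 gene called higher and 1 lower, the lysosome list 0 and 0, and the bile acid list 0 and 1. Each of these 9 rises was lost without 4 to 8 of the arrays, taken singly (0.39 to 1.47, pools included). Of 15 periportal hepatocyte genes 3 rose, among them the protease Ctsc (1.10 ± 0.17, adjusted p = 0.0065), called without any 1 array but not without the second -Met pool (1.08). Of 24 iron and heme genes 4 rose, Hp, Hpx, Cp and the transferrin receptor Tfr2 (0.67), the last lost without 6 arrays (0.57 to 0.70).

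Several of the largest changes lay outside the functional lists. Ighm, a lymphocyte marker, is the immunoglobulin mu heavy chain of B cells. It read 361 and 150 without against 41.8 and 5.05 with methionine in unfractionated RNA and 185 and 216 against 16 and 50.2 in polysome RNA (2.54 ± 0.35, adjusted p = 0.0039), from the brightest of its 11 probe sets. The B cell genes Cd79a, Cd79b and Ms4a1 were under 80 in all 8 arrays, and the other 15 lymphocyte markers summed to 141 to 268 without and 126 to 205 with methionine. With the mean over all probe sets the rise of Ighm was 0.35 and was not called. Asic5, an ion channel, read 521 and 270 against 83.5 and 85.8 in unfractionated and 337 and 349 against 69.7 and 98.2 in polysome RNA (1.91 ± 0.19, adjusted p = 0.0011). Fgl1, a liver-secreted fibrinogen-like protein, read 3730 and 8841 against 1878 and 2586 in unfractionated and 3686 and 6602 against 1314 and 1424 in polysome RNA (1.61 ± 0.25, adjusted p = 0.0065), called without any 1 array but not without 2 of the pools (1.09 and 1.46). The formin Fmn2 (2.12), the pseudogene Adh6-ps1 (2.09), the guanine nucleotide exchange factor Tiam2 (1.63), Gm7969 (2.23), Zfp874a (2.20) and Nat8f5 (1.95) completed the 15 largest rises with the acute phase genes, Cyp4a14 and Osgin1. Of these, Zfp874a was lost without 3 arrays and Nat8f5 without 6, and Fmn2 (1.99), Tiam2 (1.39) and Gm7969 (1.75) without the second -Met pool. With the mean over all probe sets Fmn2, Tiam2 and Nat8f5 were not called. Among the falls outside the lists, Rpgrip1 read 398 and 423 without against 946 and 818 with methionine in unfractionated and 461 and 359 against 1128 and 1253 in polysome RNA (-1.29 ± 0.14, adjusted p = 0.0014). Gm16551 read 68.1 and 82.8 against 221 and 189 in unfractionated and 68.7 and 115 against 309 and 269 in polysome RNA (-1.40 ± 0.17, adjusted p = 0.0023). Both were without overlap between media, but Rpgrip1 was not called with the mean over all probe sets or in 1 fit of all 16 arrays. Meiob (-1.05), Mfhas1 (-0.98), Aacs (an acetoacetate-activating enzyme, -1.0), Homer2 (-0.97), Setd4 (-0.98), Lyrm2 (-0.996), Phf1 (-0.95), 1500011B03Rik (-1.31) and the antisense Prox1os (-1.01) were the others, of which Meiob and Mfhas1 were called without any 1 array, though not without 1 pool (-1.08) and 2 pools (-0.98 and -0.93), and the rest lost the call without 2 to 7 arrays each.

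Knockout livers were then set beside the 216 genes. Omitting methionine called 12 genes higher and 9 lower in the knockout arrays (0.192% of genes), and 3 of the 216 were called there in the same direction. Of the 168 genes called higher in wild-type livers, 138 were also positive in knockout livers, with a median of 0.27, against 50.2% positive over all genes. Of the 48 called lower, 23 were also negative, with a median of 0.014. The acute phase list had a median of 0.31 in knockout livers, with 27 of 29 genes positive, against 0.81 in wild-type livers. The clock genes that peak with Dbp had a median of 0.34 there against -0.70, and those that peak with Bmal1 -0.33 against 0.74.

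The effect of the medium differed between genotypes for 46 genes (0.421% of genes), 17 with a higher and 29 with a lower difference in the knockout arrays, and 6 and 12 when the pool was a random block. These tests use the same wild-type arrays as the calls above, so they are not independent of them. Of the 46, 16 were called without any 1 array, and 31 were among the 216, 12 of them also with the pool block. Noct differed most clearly. Its 4 knockout -Met arrays read 375 to 499 against 159 to 201 with methionine, a rise of 1.20 ± 0.21 where wild-type livers had a fall (difference of 3.32 ± 0.30, adjusted p = 1.7e-05). Hsd3b2 read 811 to 1436 against 1302 to 2101 in knockout livers, overlapping over both fractions, with a difference between genotypes of -2.22 ± 0.22 (adjusted p = 2.6e-05). Slc10a2, the ileal-type bile acid transporter that bile ducts also carry, read 416 to 697 without against 53.7 to 142 with methionine in knockout livers, and 134 to 193 against 191 to 361 in wild-type livers, a difference of 2.91 ± 0.32 (adjusted p = 0.00011). Its own fall in wild-type livers (-0.74 ± 0.16, adjusted p = 0.036) was lost without each of the 8 arrays.

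Among the acute phase genes, Apcs, Itih4 and Fga were the 3 called members that differed between genotypes. Apcs read 3245 to 3733 without and 2004 to 4616 with methionine in knockout livers, above the wild-type +Met arrays in both media (difference of -2.60 ± 0.41, adjusted p = 0.0059). Itih4 (-1.02, adjusted p = 0.042) and Fga (-0.92, adjusted p = 0.028) passed the threshold only without the pool block, where the adjusted p was 0.076 and 0.059. Saa1 (adjusted p = 0.13) and Saa2 (adjusted p = 0.068) did not pass. Among the clock genes, Per1 (2.07 ± 0.38, adjusted p = 0.020, 0.057 with the pool block), Nr1d2 (1.54, adjusted p = 0.049, 0.073 with the block), Npas2 (-2.10 ± 0.37, adjusted p = 0.013) and Nfil3 (-1.38, adjusted p = 0.043, 0.073 with the block) also differed. Dbp did not pass (adjusted p = 0.079): its knockout arrays read 109 to 1938 without and 29.5 to 416 with methionine, overlapping between media. Igfbp1 (adjusted p = 0.15), Chac1 (adjusted p = 0.27) and Slc3a2 (adjusted p = 0.64), the called ATF4 targets, did not pass the test of genotypes, and a p that misses the threshold does not show that the genotypes responded alike.

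**Figure D5:**
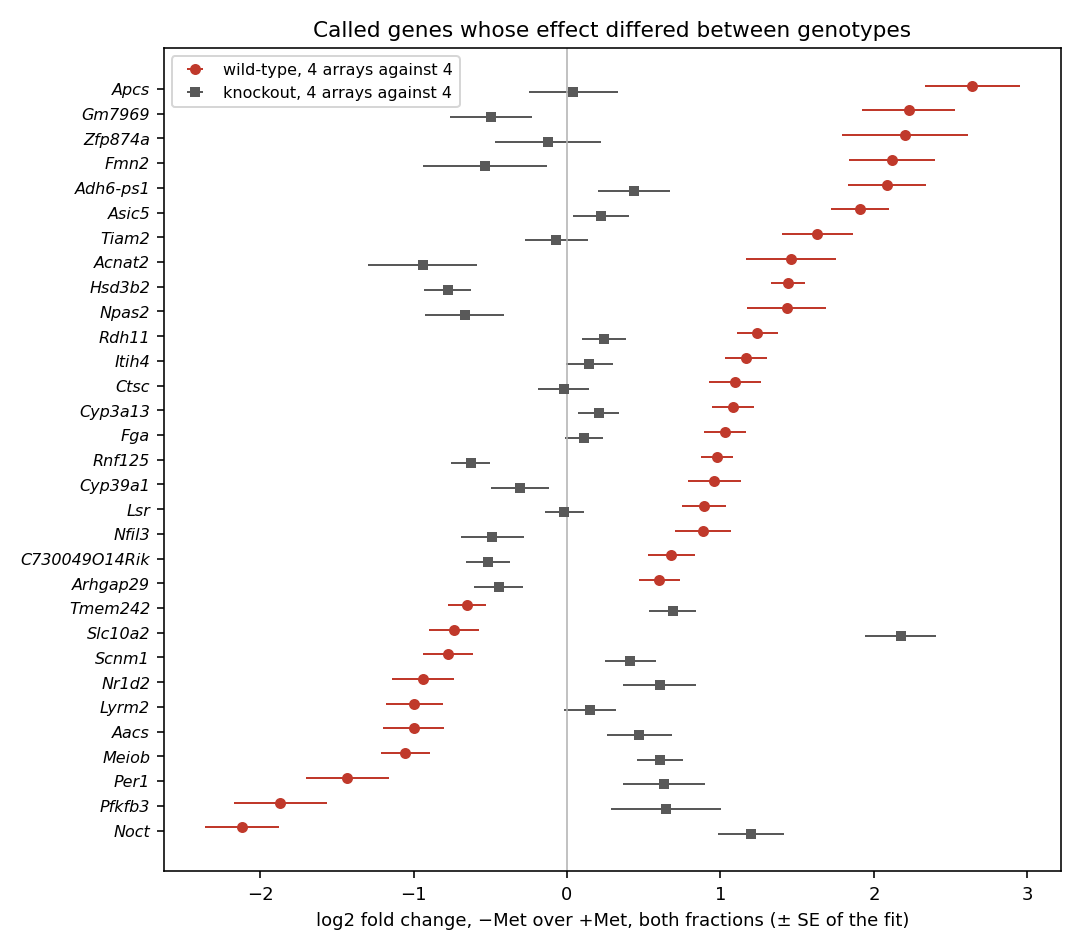
Log2 difference between -Met and +Met arrays over both fractions, with the SE of the fit, in wild-type (red circles) and knockout livers (grey squares), for the 31 called genes whose difference also differed between genotypes. Knockout values lie on the other side of 0 for 24 of them: below it for 14 of the 21 rises and above it for all 10 falls. Choosing genes by a wild-type call and a difference between genotypes favours such values. Over all called genes, 138 of 168 rises and 23 of 48 falls kept their sign in knockout livers.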

How the data were processed

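The values were Affymetrix probe set intensities that the authors deposited on a linear scale, already scaled so that the trimmed mean (2% off each end) was 150.0 on every array. Which algorithm made these signals was not given in the sources used here. Of 45101 probe sets, 34945 had 1 gene in the platform annotation, 932 had several, 9160 had none and 64 were controls, and only those with 1 gene were used. Each of 18193 genes was represented by its probe set of highest mean across the 16 arrays. The dimmest 40% of genes were left out, which left 10916. The remaining values were tested as log2(signal + 16) with limma 3.58.1 in R 4.3.3 (lmFit, then eBayes with a trend), with fraction and medium as terms and 5 residual degrees of freedom, two-sided, with Benjamini-Hochberg adjustment over all tested genes at 0.05. Adding 16 understates the change of dim genes. Differences between fractions or genotypes were interaction terms.

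Same-numbered unfractionated and polysome arrays deviated together (r = 0.184 to 0.317 in the 4 pairs of medium and genotype), so they were taken to come from the same pool, which the labels do not state. Numbers did not pair wild-type media (r = -0.021 and -0.009). In knockout livers, same-numbered arrays of the 2 media gave r = 0.224 in unfractionated and -0.008 in polysome RNA. The first value lies within the range of the same-numbered fractions, so an r of this size does not by itself identify a pool. With 2 pools per group the number of arrays limits the precision. Alternatives were array medians made equal, quantile normalization, other pseudocounts and filters, the mean of a gene's probe sets, other fits, pool or number as a block, and each array or pool left out. The calculations were tested on simulated data.

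Genes named in the text are the 15 largest called rises and falls without overlap between media in either fraction, up to 4 called members of each of 53 lists by smallest p, and, whatever their values, preset genes of the amino acid response, the methionine cycle, the clock and serum amyloid A. For the differences between fractions and genotypes they are the called genes, up to 10 a direction, or the 5 smallest p-values a direction where none was called. Others are said to be chosen after their values were seen. The members and lists were chosen with earlier results of these data known. In all, 153 of 1526 list entries did not match a gene on the array. Promoter windows (32851 windows of 27025 genes, RefSeq, GRCm38.p6) were searched on both strands for 9 motifs: the E-box CACGTG, the D-box TTATGNAA, the RORE core AGGTCA, the C/EBP motif TTGCNNAA, the STAT motif TTCNNNGAA, the cAMP response element TGACGTCA, the amino acid response motif TGATGNAA, the NF-kB decamer and the HNF1 core. Of the tested genes, 8908 had a window.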

Additional observations from a re-analysis of the deposited data

Results flagged for a closer look

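The effect of omitting methionine differed between genotypes for 46 genes (interaction term, limma, adjusted p under 0.05). Only those that met the rule for named genes are given here. Each stands with its log2 difference in knockout minus that in wild-type livers. The wild-type arrays are those of the main comparison. The knockout value was the lower one for Gm7969 (-2.72), Fmn2 (-2.65), Apcs (-2.60), Acnat2 (-2.40), Zfp874a (-2.33), Hsd3b2 (-2.22), Lrtm1 (-2.19), Npas2 (-2.10), Ccnf (-1.93), Tiam2 (-1.70), Asic5 (-1.69), Adh6-ps1 (-1.65), Nfil3 (-1.38), Ctsc (-1.12), Itih4 (-1.02), Fga (-0.92) and Cyp3a13 (-0.88). It was the higher one for Lyrm2 (1.15), Tmem242 (1.34), Aacs (1.47), Selenbp1 (1.498), Nr1d2 (1.54), Meiob (1.66), Serpina12 (2.04), Per1 (2.06), Pfkfb3 (2.52), Slc10a2 (2.91) and Noct (3.32). With the pool as a random block, Gm7969, Apcs, Hsd3b2, Lrtm1, Npas2, Tiam2, Asic5, Tmem242, Selenbp1, Meiob, Serpina12, Slc10a2 and Noct of this list also passed the threshold. Among the 46 but not in this list were Rnf125 (-1.61, limma adjusted p = 0.00011) and Rdh11 (-0.998, adjusted p = 0.035). Both had been called in wild-type livers without any 1 array or pool. The genotype difference of Rnf125 was lost without 0 arrays and that of Rdh11 without any 1 of 11.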

How the results depend on the processing

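Counts are given as genes higher and lower. The shared change (168 and 48) became 56 and 166 with array medians made equal, 109 and 19 with the mean of all probe sets, 28 and 12 with eBayes without a trend, 29 and 7 from pool means, 2 and 0 from unfractionated and 49 and 17 from polysome arrays alone, with 30 lower genes without the filter on dim genes and 84 in 1 fit of all 16 arrays. Leaving out 1 array or pool gave 24 to 178 and 12 to 77, with a highest value for 1 array of 153 and 47 (for the -Met pools 87 and 26, then 24 and 13; for the +Met pools 39 and 12, then 77 lower). As replicate block, the pool gave 137 and 35 and the number, which did not pair wild-type media, 193 and 66. Unfractionated RNA alone (2 and 0) gave 8 and 3 with equal medians, 24 and 4 with the number block and 0 to 4 and 0 to 1 without 1 array or pool. Polysome RNA (130 and 74) gave 36 and 382 with equal medians, 113 lower with quantile normalization, 204 and 127 with the number block and 0 to 214 and 0 to 164 without 1 array or pool. The fraction difference (0 and 0) gave 0 to 15 and 0 to 5. Knockout livers (12 and 9) gave 4 and 5 with equal medians, 63 and 53 with the number block, 4 higher with the pool block and 2 to 12 and 6 to 13 without 1 array or pool. The genotype difference (17 and 29) gave 13 lower with equal medians, 44 and 63 with the number block, 6 and 12 with the pool block, 10 and 16 without the filter, 7 and 10 with the mean of probe sets, 5 and 9 without a trend, 1 and 0 from unfractionated and 2 and 0 from polysome arrays alone, and 6 to 23 and 13 to 34 without 1 array or pool. Signs turned for uncalled genes alone: with equal medians for Atf3 (-0.061), Bhmt (-0.043), Cbs (-0.051), Cth (-0.015) and Gnmt (-0.042); for Atf3 also in unfractionated RNA (-0.259), without the second polysome -Met array or -Met pool (both -0.048, up to 0.36 without another array) and without the second +Met pool (-0.026); for Ddit3 with the mean of probe sets (0.218), in polysome RNA (0.270) and without 1 array or pool (0.034, 0.054, 0.038, 0.050, 0.076, 0.033, 0.122 and 0.182, down to -0.215 without the first polysome +Met array). The cause of these changes was not tested.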

Other observations

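Rpgrip1, which fell in wild-type livers, read 11.2 and 12.4 in the arrays of the second knockout +Met pool and 582 to 1260 in the other 6 knockout arrays. Dbp differed between the pools of one medium in both fractions and both genotypes, for example 240 and 29.5 in unfractionated knockout +Met RNA and 1938 and 109 in unfractionated knockout -Met RNA.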
